A study of Rattus norvegicus with 8 samples.

Results

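Metabotropic glutamate receptors are G protein-coupled receptors that tune glutamate transmission, and Homer proteins are the postsynaptic adaptors that tie some of them to intracellular signaling. Group I receptors, here Grm5, couple to Gq and phospholipase C. Group II receptors (Grm2 and Grm3) and group III receptors (Grm4, Grm7 and Grm8) couple to Gi/o, lower cyclic AMP and often sit on axon terminals, and Grm3 is also made by astrocytes. Homer1, Homer2 and Homer3 bind a proline-rich motif in group I receptors and link it to inositol trisphosphate receptors and Shank scaffolds, while the short, activity-induced form of Homer1 lacks the coiled coil that joins the long forms to each other. In the spinal dorsal horn these receptors are known for their part in pain transmission.

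The members were 6 receptor genes and 3 Homer genes, taken as every non-control probe whose gene name in the array files was Grm2, Grm3, Grm4, Grm5, Grm7, Grm8, Homer1, Homer2 or Homer3. This gave 9 genes and 10 probes out of 16191 gene symbols and 30367 probes on the array, with a pair of probes for Grm4 and 1 probe for each of the other genes. Other receptors of the family were not analysed here. The whole lumbar L6S1 spinal cord, freed of its meninges, was profiled in 4 stressed and 4 control male Wistar rats, all 12 weeks old, on 1 Agilent one-color array per rat. Stressed rats underwent daily water avoidance (WA) stress, in which a rat stands on a small platform surrounded by water, for 10 days, and tissue was taken 24 h after the last session. Control rats were handled without the stress. In whole tissue, fewer cells of a type and less RNA per cell cannot be told apart. Neuronal markers were plainly present in both groups, for example Snap25, a protein of synaptic vesicle release, with a mean log2 level of 4.79 in controls and 4.99 in stressed rats.

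Each value reports the hybridization of 60 bases of a transcript. The probes of 5 genes are shown to give the bases that their levels rest on. They are printed in the sense direction, 5′ to 3′, with the chromosome, positions and strand given by the array files on the rn4 rat assembly. The capitals in Grm5 mark TGA, which ends the reading frame that starts at the first base of the probe and is the lone stop triplet in that frame. The Grm7 and Grm8 probes span far more genome than 60 bases, 112839 and 6498 bases, so each joins sequence from separate genomic blocks. Exons and UTRs were not analysed here.
Grm5, chr1:144477224-144477283, plus strand: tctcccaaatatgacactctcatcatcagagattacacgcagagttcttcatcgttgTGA
Grm7, chr4:147088377-147201215, plus strand: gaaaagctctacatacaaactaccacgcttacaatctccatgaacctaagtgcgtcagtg
Grm8, chr4:53976813-53983310, minus strand: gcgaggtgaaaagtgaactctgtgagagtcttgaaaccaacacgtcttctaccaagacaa
Homer2, chr1:137827777-137827836, minus strand: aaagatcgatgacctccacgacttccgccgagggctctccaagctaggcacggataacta
Homer3, chr16:19624630-19624689, minus strand: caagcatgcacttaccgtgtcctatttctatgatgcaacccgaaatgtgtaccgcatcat

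The Grm2, Grm4 and Homer1 probes are described without their sequence. The Grm2 probe lies at chr8:111838413-111838472 on the minus strand. The Grm4 probes lie side by side on the minus strand of chromosome 20, at chr20:5627750-5627809 and chr20:5627795-5627854, and share 15 bases, so they are not independent measurements. The one nearer to the 3′ end holds the polyadenylation signal AATAAA from its base 53, a run of 6 letters that occurs on the probe strand in 8.39% of all probes and on either strand in 10.96%. The Homer1 probe has 10 spots and no position in the files, and the short and long forms of Homer1 cannot be told apart with it.

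Levels are given as log2 of the processed signal minus the 75th percentile of the same array, so that 0 is the signal of a bright probe and each step of 1 is a doubling. A level ranks the rats at 1 probe and is not compared between probes. All 10 probes were well above background on all 8 arrays and none of their spots was saturated. The 75th percentile signal was 1841 to 2335 in controls and 1751 to 1945 in stressed rats. One array stood apart from its group. On the first principal component of all tested probes, which held 54.1% of the variance, control 2 lay at 46.1, on the side of the stressed rats (8.23 to 34.5), while the other controls lay between -56.2 and -39.4. A difference was taken between probes far from and near to the 3′ end of the same transcript and centered on its mean over the 8 arrays. Its median over 1683 transcripts in each array is relative to these arrays, so its sign does not show a loss or gain in itself. This median split the arrays the same way, at 0.19 in control 2 and 0.08 to 0.16 in stressed rats against -0.27 to -0.16 in the other controls. All arrays were on 1 slide with the stressed rats in the first row and the controls in the other, so row and group cannot be told apart. The results are therefore also given without control 2 and with this 5′ minus 3′ difference fitted as a covariate.

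None of the 10 probes passed an adjusted p of 0.1 between stressed and control rats (limma, adjusted over all tested probes), where 3.74% of the 23678 tested probes did. At an unadjusted p below 0.05 there were 4 of 10 member probes against 20.3% of all tested probes, namely Grm3, Grm5 and both Grm4 probes. Stressed and control rats were fully apart at 3 of the 10 probes, Grm3 and both Grm4 probes, against 12.1% of all tested probes. Both counts include the overlapping pair of Grm4 probes, which are not independent measurements. The differences were above 0 at 7 of 10 probes, where 14106 of the 23678 tested probes were. Their median was 0.16 on the log2 scale against 0.06 for all tested probes. The 95% intervals excluded a difference of 1 log2 unit in either direction at 9 of 10 probes, all but Homer2.

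**Figure D1:**
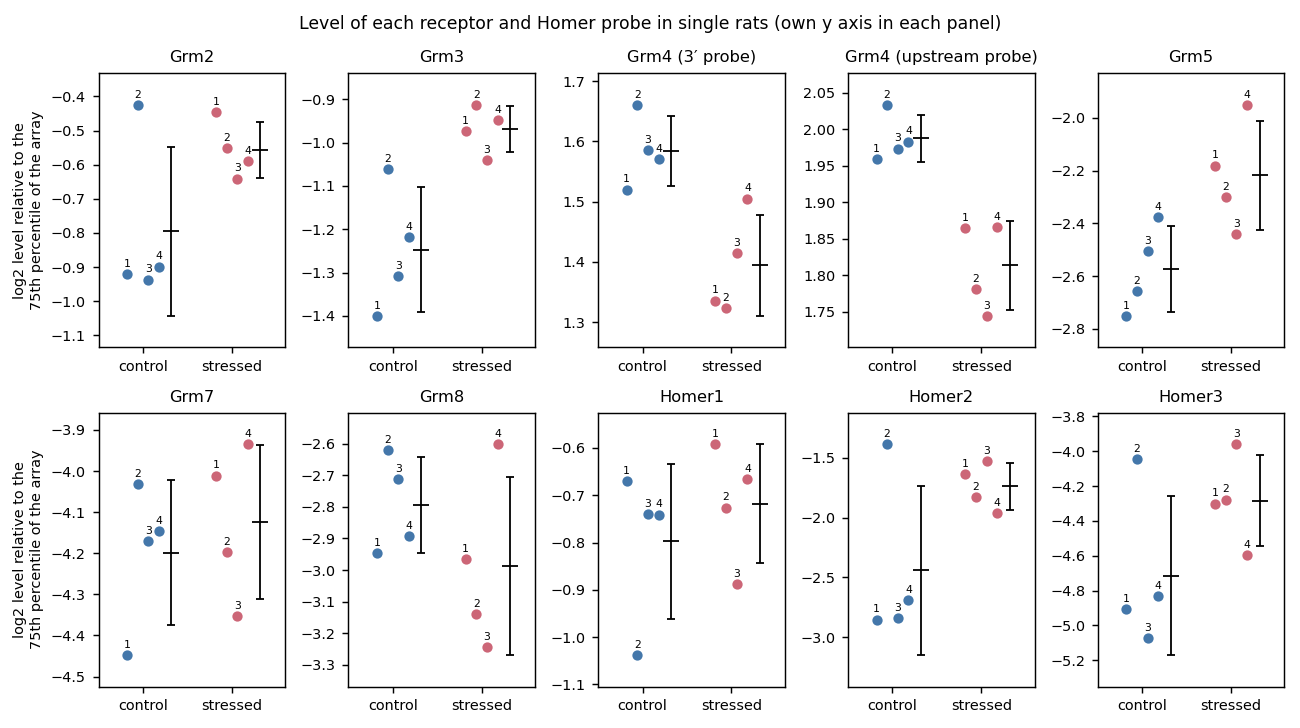
Log2 level of each receptor and Homer probe, relative to the 75th percentile of its array, in 4 control and 4 stressed rats (points, with replicate numbers). Bars show the mean and SD of each group and each panel has its own y axis. Groups are apart at Grm3 and at both Grm4 probes, and control 2 lies above the stressed rats at Grm2 and Homer2.

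Among group I receptors, Grm5 is the main postsynaptic receptor that Homer proteins bind. Its log2 level in controls was -2.75, -2.66, -2.51 and -2.38, and in stressed rats it was -2.18, -2.30, -2.44 and -1.95. In 3 stressed rats the level was above all controls, while stressed 3 fell just below control 4. The mean was -2.57 ± 0.16 (SD, n = 4) in controls and -2.22 ± 0.21 (SD, n = 4) in stressed rats. The difference of 0.35 (SE 0.13, 95% interval 0.06 to 0.65, 1.28-fold) had a limma adjusted p of 0.195 and an exact two-sided permutation p of 0.0571. Control 2 was unremarkable at this probe, and the difference was 0.33 without it (adjusted p = 0.114) and 0.42 with the 5′ minus 3′ covariate (adjusted p = 0.219).

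Among group II receptors, Grm3 is the form shared by neurons and astrocytes. Its log2 level was -1.40, -1.06, -1.31 and -1.22 in controls and -0.97, -0.91, -1.04 and -0.95 in stressed rats. Every stressed rat was above every control, by the least margin over control 2. The mean was -1.25 ± 0.14 (SD, n = 4) in controls and -0.97 ± 0.054 (SD, n = 4) in stressed rats, a difference of 0.28 (SE 0.087, 95% interval 0.08 to 0.48, 1.21-fold). The limma adjusted p was 0.157 and the exact two-sided permutation p was 0.0286, the smallest that 70 choices of 4 from 8 rats allow. Without control 2 the difference was 0.34 (adjusted p = 0.00907), and with the covariate it was 0.12 (adjusted p = 0.388). The summed level of 8 astrocyte markers leaned the same way, at 59.7 to 71.3 in controls and 67.3 to 86.0 in stressed rats (exact permutation p = 0.0571), with control 2 the highest control. The sum adds signals that are not on the log scale and rests most on the brightest gene, Aqp4. Aldh1l1 (-0.08) and Slc1a3 (-0.20) were lower in stressed rats, and the other markers were higher. None of these 8 genes passed the adjusted p of 0.1, and their part in the Grm3 difference was not tested.

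Grm2, the other group II receptor and chiefly an autoreceptor of axon terminals, gave a different order of rats. Its log2 level was -0.92, -0.42, -0.94 and -0.90 in controls and -0.44, -0.55, -0.64 and -0.59 in stressed rats. Control 2 was the highest of all 8 rats, and the other controls were below every stressed rat. The mean was -0.80 ± 0.25 (SD, n = 4) in controls and -0.56 ± 0.083 (SD, n = 4) in stressed rats, with a difference of 0.24 (SE 0.13, 95% interval -0.05 to 0.53, 1.18-fold), a limma adjusted p of 0.321 and an exact permutation p of 0.143. Without control 2 it was 0.36 (adjusted p = 0.00625), and with the covariate its sign turned, at -0.05 (adjusted p = 0.762).

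Among group III receptors, which reduce transmitter release, Grm4 was the lone gene of the 9 whose levels lay below all controls in every stressed rat. At the probe with AATAAA, controls had log2 levels of 1.52, 1.66, 1.59 and 1.57 and stressed rats had 1.34, 1.32, 1.41 and 1.51. At the overlapping upstream probe, controls had 1.96, 2.03, 1.97 and 1.98 and stressed rats had 1.86, 1.78, 1.74 and 1.87. Control 2 was the highest control at both probes, farther from the stressed rats than the other controls were. The means were 1.58 ± 0.058 and 1.39 ± 0.084 (SD, n = 4 each) at the former probe, with a difference of -0.19 (SE 0.072, 95% interval -0.35 to -0.02, 0.877-fold, limma adjusted p = 0.205). They were 1.99 ± 0.032 and 1.81 ± 0.061 at the latter, with a difference of -0.17 (SE 0.064, 95% interval -0.32 to -0.03, 0.887-fold, limma adjusted p = 0.198). The exact permutation p was 0.0286 at both. Without control 2 both differences were -0.16 (adjusted p = 0.0941 and 0.0707), and with the covariate they were -0.24 and -0.21 (adjusted p = 0.152 and 0.147).

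The other group III receptors showed no such separation. Grm7, a low-affinity receptor of the presynaptic active zone, had log2 levels of -4.45, -4.03, -4.17 and -4.15 in controls and -4.01, -4.20, -4.35 and -3.93 in stressed rats. The groups overlapped, with the lowest level in control 1 and the highest in stressed 4, and the difference was 0.08 (SE 0.13, 95% interval -0.21 to 0.37, limma adjusted p = 0.745). Its sign depended on the scaling, at -0.15 after quantile normalization. Grm8 had log2 levels of -2.95, -2.62, -2.71 and -2.89 in controls and -2.97, -3.14, -3.24 and -2.60 in stressed rats. Of the stressed rats, 3 lay below all controls and stressed 4 lay above them, so the mean of -2.79 ± 0.15 (SD, n = 4) in controls and -2.99 ± 0.28 (SD, n = 4) in stressed rats differed by -0.19 (SE 0.15, 95% interval -0.54 to 0.15, limma adjusted p = 0.476).

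Of the Homer scaffolds, Homer2 had the widest spread. Its log2 level was -2.85, -1.38, -2.84 and -2.69 in controls and -1.64, -1.83, -1.53 and -1.96 in stressed rats. Control 2 was again the highest of all 8 rats, and the other controls lay below every stressed rat. The mean was -2.44 ± 0.71 (SD, n = 4) in controls and -1.74 ± 0.19 (SD, n = 4) in stressed rats, with a difference of 0.70 (SE 0.33, 95% interval -0.05 to 1.46, 1.63-fold), a limma adjusted p of 0.268 and an exact permutation p of 0.143. Without control 2 the difference was 1.06 (adjusted p = 0.00131). With the covariate it turned to -0.15 (adjusted p = 0.469).

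Homer3, a long-form scaffold with a coiled coil, ordered the rats much as Homer2 did. Its log2 level was -4.90, -4.05, -5.07 and -4.83 in controls and -4.30, -4.28, -3.96 and -4.60 in stressed rats. Control 2 lay above all stressed rats but stressed 3, and the other controls lay below them. The mean was -4.71 ± 0.46 (SD, n = 4) in controls and -4.28 ± 0.26 (SD, n = 4) in stressed rats, and the difference of 0.43 (SE 0.24, 95% interval -0.11 to 0.97, 1.35-fold) had a limma adjusted p of 0.332. It was 0.65 without control 2 (adjusted p = 0.0162) and -0.13 with the covariate (adjusted p = 0.646).

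Homer1 had the smallest difference of the Homer genes over all 8 rats, but not with the covariate. Its log2 level was -0.67, -1.04, -0.74 and -0.74 in controls and -0.59, -0.73, -0.89 and -0.67 in stressed rats. Control 2 was the lowest of all 8 rats here, and the groups overlapped. The mean was -0.80 ± 0.16 (SD, n = 4) in controls and -0.72 ± 0.13 (SD, n = 4) in stressed rats, and the difference of 0.08 (SE 0.11, 95% interval -0.17 to 0.32) had a limma adjusted p of 0.682. It was 0.27 with the 5′ minus 3′ covariate (adjusted p = 0.167), farther from 0 than Homer2 and Homer3 were in that fit, and close to 0 without control 2 (adjusted p = 0.995). Of its 80 spot values, 4 were marked as outliers by the scanner software and left out.

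**Figure D2:**
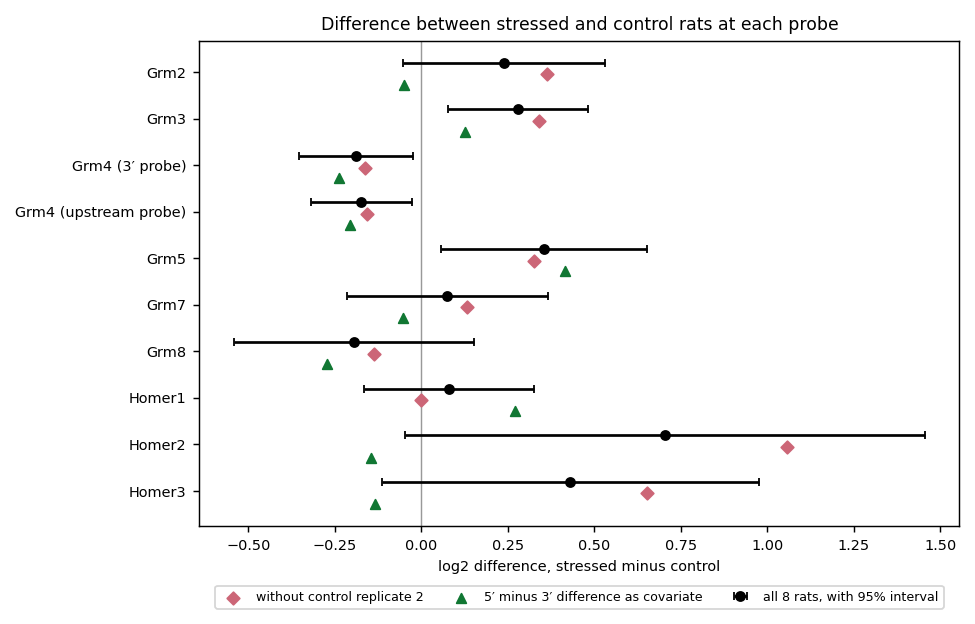
Log2 difference, stressed minus control, at each probe with its 95% interval over all 8 rats (black), without control replicate 2 (red diamonds) and with the 5′ minus 3′ covariate (green triangles). The Grm4 and Grm5 points stay on one side of 0, while Grm2, Homer2 and Homer3 move above their value without control 2 and below 0 with the covariate.

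Control 2 was singled out for lying with the stressed rats in these same data. Results without it, or with less weight on it, are therefore a description and not independent support. Leaving out control 2 changed the counts for members and for the whole array together. Without it, 6 of 10 member probes passed the adjusted p of 0.1, Grm2, Grm3, Homer2 and Homer3 higher in stressed rats and both Grm4 probes lower, where 42.4% of all tested probes passed. With weights that let the fit discount aberrant arrays, which gave control 2 a weight of 0.107, 7 of 10 passed (these and Grm5, 0.29, adjusted p = 0.0615), where 50.6% of all probes did. With the 5′ minus 3′ covariate 0 of 10 passed, where 10.1% did. On a scale from 0 at the mean of the other controls to 1 at the mean of stressed rats, control 2 lay at 1.36 for Grm2, 0.73 for Grm3, 1.33 for Homer2 and 1.36 for Homer3, but at -0.35 for Grm5 and -0.62 and -0.39 for the Grm4 probes. The part of the 5′ minus 3′ difference in these results cannot be told apart from stress in the other 7 rats. Their values, relative to the arrays as a whole, were below 0 in controls and above 0 in stressed rats.

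**Figure D3:**
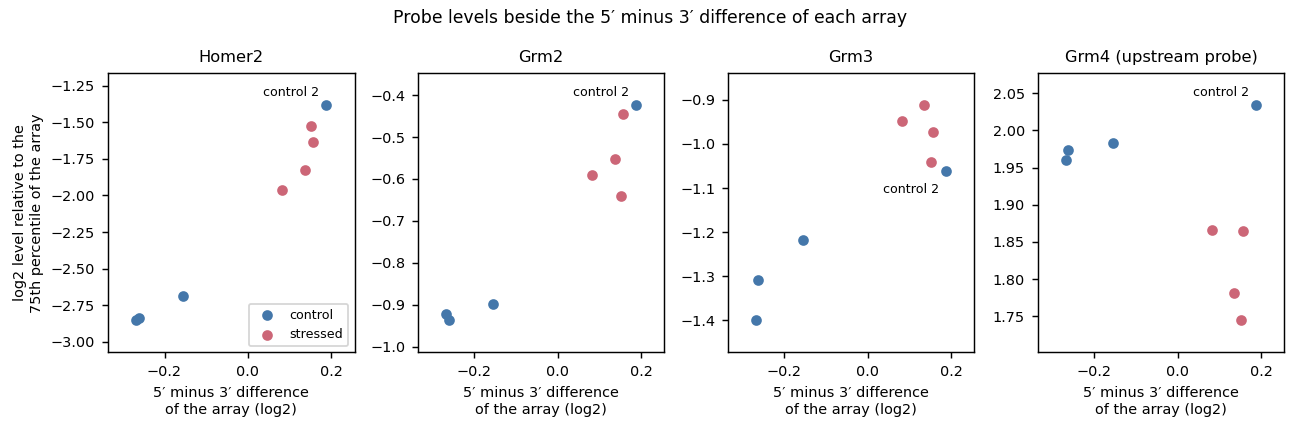
Log2 level of Homer2, Grm2, Grm3 and the upstream Grm4 probe (y axes) against the array's 5′ minus 3′ difference in log2 units (x axes), one point per rat, with control 2 named. Control 2, at 0.19 on the x axis, lies with or above the stressed rats for Homer2 and Grm2, just below them for Grm3, and with the controls for Grm4.

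The genes most like each member over the 8 arrays were found by Pearson correlation of log2 level among 13264 other gene symbols, as a description only, since all points share the same arrays. Homer2 was most like Ado (r = 0.998), Grm3 most like Rbm11 (r = 0.996), Homer3 most like Ugt8 (r = 0.993), Grm2 most like Gucy1a2 (r = 0.992) and Grm4 most like Dus3l (r = 0.991). The number of genes with r above 0.9 set the members apart, with 1635 for Homer2, 1188 for Grm2 and 1102 for Homer3 but 24 for Grm5, whose nearest gene was Inpp4a (r = 0.955). For Grm3 there were 620 such genes and for Grm4 235. Grm7 (Nhedc2, r = 0.975, 14 genes), Grm8 (Olr515, r = 0.949, 19 genes) and Homer1 (Ndufa8, r = 0.968, 37 genes) also had few.

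Of 48 other genes that act with these receptors, in 4 lists, all were on the array and 46 were tested, Shank2 and Elfn1 being too dim. At the brightest probe of each gene and the adjusted p of 0.1, 2 of the 46 rose in stressed rats and none fell, where 2.77% of all tested probes rose. Over all 65 tested probes of these genes 4 rose, the others being further probes of Grip1 and Ryr2. At the brightest probes the median difference was 0.14 on the log2 scale, and 28 of 46 were above 0 (14106 of the 23678 tested probes). An unadjusted p below 0.05 was found for 14 (20.3% of all tested probes), and the groups did not overlap for 5 (12.1% of all tested probes).

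In the Gq and phospholipase C arm, which carries the signal of group I receptors, none of 10 genes passed. The median was 0.21, and 4 of the 10 were at an unadjusted p below 0.05 (20.3% of all tested probes). The largest difference was that of Gna11, a Gq-class alpha subunit, with log2 levels of -4.57, -3.18, -4.73 and -4.28 in controls and -3.38, -3.51, -3.59 and -3.22 in stressed rats. Control 2 was the highest of all 8 rats, and the other controls lay below every stressed rat. The difference was 0.77 (SE 0.32, limma adjusted p = 0.234), 1.10 without control 2 (adjusted p = 0.00176) and -0.02 with the 5′ minus 3′ covariate (adjusted p = 0.955). In the Gi/o and adenylyl cyclase arm 4 of 12 genes were at an unadjusted p below 0.05 (20.3% of all tested probes). The median was 0.05, and 1 gene rose. It was Gnai1, an inhibitory G protein alpha subunit, with log2 levels of -3.40, -3.11, -2.999 and -2.92 in controls and -2.53, -2.27, -2.24 and -2.61 in stressed rats. Control 2 lay among the other controls, and the difference was 0.70 (SE 0.13, limma adjusted p = 0.0658), at 0.64 with the covariate (adjusted p = 0.103).

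Of 13 receptor regulators and binding proteins tested, 2 were at an unadjusted p below 0.05 (20.3% of all tested probes). The median was 0.08, and 1 gene rose at its brightest probe. It was Siah1a, a ubiquitin ligase that binds group I receptors, with log2 levels of -1.54, -1.77, -1.61 and -1.53 in controls and -1.31, -1.20, -1.26 and -1.27 in stressed rats, a difference of 0.35 (SE 0.076, limma adjusted p = 0.0809). Control 2 was the lowest of the 8 rats. Without control 2, Gnai1 and Siah1a also passed (adjusted p = 0.0128 and 0.00776), as did 29 of the 46 genes in all, where 42.4% of all tested probes did. Neither passed when any other single rat was left out (adjusted p = 0.119 to 0.242), where 0 to 72 of the 23678 tested probes did. Neither passed after quantile normalization (0.55, adjusted p = 0.105, for Gnai1 and 0.26, adjusted p = 0.217, for Siah1a). Siah1a did not pass with normexp (0.34, adjusted p = 0.157). Siah1a passed with the covariate (0.46, adjusted p = 0.0442), where 10.1% of all tested probes did. Grip1, a scaffold with PDZ domains, was chosen after its values were seen. Its brightest probe differed by 0.08 (adjusted p = 0.772) and another by 0.17 (adjusted p = 0.678), but a further probe had log2 levels of -3.09, -3.09, -3.01 and -3.10 in controls and -2.64, -2.60, -2.71 and -2.54 in stressed rats. All stressed rats were above all controls there, and the difference was 0.45 (SE 0.067, limma adjusted p = 0.0435), at 0.44 without control 2 (adjusted p = 0.00307) and 0.48 with the covariate (adjusted p = 0.0442). It was 0.35 with normexp background correction (adjusted p = 0.185) and 0.29 after quantile normalization (adjusted p = 0.196). This probe did not pass when any single rat other than control 2 was left out (adjusted p = 0.111 to 0.169). In those runs 0 to 72 of the 23678 tested probes passed. The Grip1 probes all lay above 0 but disagree in size and in whether they passed.

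Of 11 postsynaptic scaffolds and Homer partners none passed at its brightest probe. The median was 0.14, and 4 of the 11 were at an unadjusted p below 0.05 (20.3% of all tested probes). The largest difference was that of Dlgap1, a scaffold that joins PSD-95 to Shank, at 1.12 (SE 0.40, limma adjusted p = 0.193), and it was 0.05 with the covariate and 1.55 without control 2 (adjusted p = 0.000809). Ryr2, an intracellular calcium channel chosen after its values were seen, differed by 0.14 at its brightest probe (adjusted p = 0.360). Its other probe had log2 levels of -6.45, -5.89, -6.22 and -6.01 in controls and -4.70, -5.30, -5.01 and -5.45 in stressed rats. All stressed rats were above all controls at it, and the difference was 1.03 (SE 0.19, limma adjusted p = 0.0605). The difference was 0.37 with normexp background correction (adjusted p = 0.566), 0.74 with the covariate (adjusted p = 0.111) and 1.11 without control 2 (adjusted p = 0.00658). It did not pass without any other single rat (adjusted p = 0.105 to 0.208), where 0 to 72 of the 23678 tested probes did. The following genes were chosen after their values were seen, as those whose stressed rats all lay below every control. They were Shank3, a scaffold that Homer proteins bind (-0.30, adjusted p = 0.121), Dbn1, an actin-binding protein of dendritic spines (-0.32, adjusted p = 0.140), and Ncdn, or neurochondrin (-0.15, adjusted p = 0.234). None passed in this fit of all 8 rats, and a second Shank3 probe was higher by 0.15. Without control 2 all of them passed (adjusted p = 0.0235, 0.0236 and 0.0989), where 42.4% of all tested probes did. They also passed with array weights (adjusted p = 0.00566, 0.00561 and 0.0683), where 50.6% did. With the robust variance trend Shank3 and Dbn1 passed (adjusted p = 0.0718 and 0.0970), where 1295 of the 23678 tested probes did. With no filter on dim probes Shank3 passed (0.0927), where 3010 of 30357 probes did. None passed with the covariate (adjusted p = 0.192, 0.290 and 0.109).

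**Figure D4:**
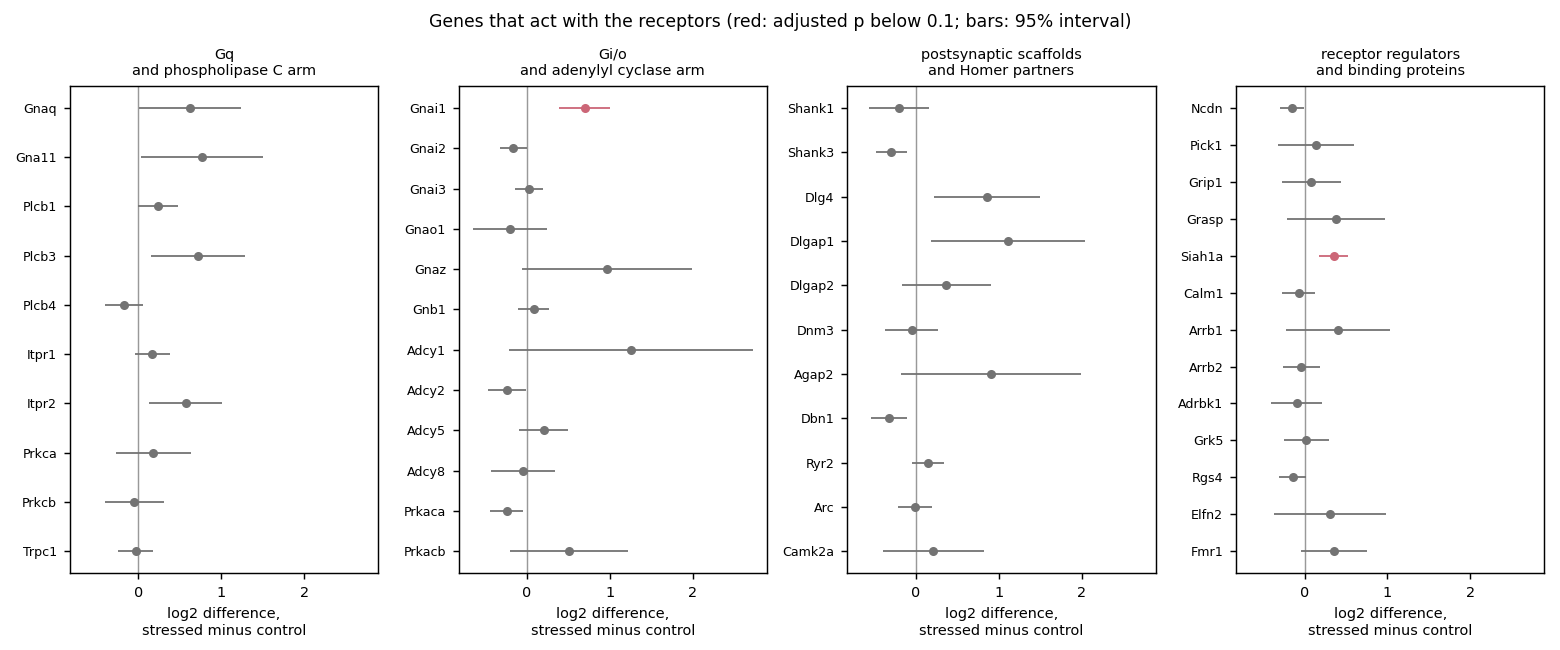
Log2 difference, stressed minus control, with its 95% interval at the brightest probe of the 46 tested genes that act with the receptors, by list. Gnai1 and Siah1a, in red, are the genes with an adjusted p below 0.1 there, and both lie above 0.

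Markers of other cell types in the cord were set beside these results. Of 10 marker lists, 1 of 8 oligodendrocyte genes and 1 of 6 endothelial genes passed the adjusted p of 0.1, and none in the other lists. Of all tested probes 3.74% passed. The genes were Mog, a myelin protein of oligodendrocytes (0.90 higher on the log2 scale, adjusted p = 0.0721), and Pecam1, an endothelial adhesion protein (0.40 higher, adjusted p = 0.0927). The summed level of the 7 neuronal markers measured was 82.4 to 88.5 in controls and 83.9 to 101 in stressed rats. A sum rests most on its brightest genes, and the median log2 difference of these markers was -0.09. Snap25, Syt1 and Nefl were higher in stressed rats, and Stmn2, Slc17a6, Gad1 and Slc6a5 were lower. The 5 oligodendrocyte precursor markers summed to 8.53 to 13.7 in controls, the highest being control 2, and to 13.05 to 15.1 in stressed rats (exact permutation p = 0.0571). The brightest of them, Olig1, was higher by 0.93, and Pdgfra, Cspg4, Olig2 and Gpr17 by 0.03 to 0.24. None of them passed the adjusted p of 0.1. The 8 oligodendrocyte markers summed to 235 to 341 and 256 to 351 and the 5 motor neuron markers to 9.20 to 11.7 and 7.10 to 10.3. Schwann cell markers of the nerve roots reached 53.1 in control 1 and were 0.283 to 13.3 in the other rats. Whether any of these has a part in the receptor and Homer differences was not tested.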

How the data were processed

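Arrays were SurePrint G3 Rat GE 8x60K, with 1 array for each rat, grouped by the labels. The intensity values that the authors deposited are processed signals of Agilent Feature Extraction 10.7.3.1, already background-corrected within each array, and the deposited value table holds the same signal rounded. The deposited flags for well above background, outlier and saturated spots are other values of the same software. The methods name dChip and thresholds on the false discovery rate, with no test or scaling.

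Control spots (4259) and outlier spots were left out, log2 signals were reduced by the 75th percentile of each array, and spots of a probe were averaged. Probes well above background on at least 4 of 8 arrays in at least 0.5 of their spots were tested (23678 of 30367). Groups were compared with limma 3.58.1 in R 4.3.3 (data.table version 1.17.8), adjusted by Benjamini-Hochberg over all tested probes at 0.1. Single values were compared with the exact two-sided permutation test. Intervals are 95%, per probe and not adjusted. The fit was tested on simulated data. Arrays give no counts, and precision is set by the number of arrays and by how far signals rise above background.

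Summed marker levels add the linear signals relative to the 75th percentile. The 5′ minus 3′ difference uses probe pairs at least 300 bases apart, each centered on its mean over all arrays, and is the median over pairs. All members were named with all probes. From the pathway lists, the called genes were named or else the one with the largest difference. A gene with several probes was represented by its brightest tested probe. Some listed genes and a probe sequence are not reported here. Members and lists were chosen with earlier results of these data known. Alternatives were normexp background correction (offset 50), quantile normalization, the deposited value table, other filters, a robust variance trend, array weights, a replicate block, the covariate, 1 probe per gene and each rat left out.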

Additional observations from a re-analysis of the deposited data

Results flagged for a closer look

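Among 38 groups of 4 rats examined at the member and named pathway probes, 3 held a rat whose gap to the nearest other rat, as a share of the group's range, was above the 95% critical value of Dixon's test, which chance alone exceeds in about 1 in 20 groups. In 2 of them it was control 2, at Grm2 (gap 0.926 of the range of controls) and at Homer2 (gap 0.887 of the range). The other was control 3 at the further Grip1 probe (gap 0.932 of the range), where the controls lay within -3.10 and -3.01. At Grm2 and Homer2 control 2 had the highest level of all 8. Without control 2, stressed rats were higher by 0.36 (limma adjusted p = 0.00625) at Grm2 and by 1.06 (adjusted p = 0.00131) at Homer2. Since control 2 was flagged from these same values, these adjusted p are a description only.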

How the results depend on the processing

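All tested probes passing the adjusted p of 0.1 numbered 885, and 215 with normexp and 1251 with quantile normalization. They numbered 3010 with no filter on dim probes, 1295 with the robust variance trend and 11983 with array weights. With the 5′ minus 3′ covariate they numbered 2395, and 0 to 10036 with 1 rat left out. The share of higher calls was 74.0%, and 49.4% after quantile normalization, which moved the median of all probes from 0.06 to -0.03. Member probes passing numbered 0, and 7 with array weights and 0 to 6 with 1 rat left out. Pathway genes passing numbered 2, and 1 with normexp, 0 with quantile normalization, 4 with the robust variance trend, 31 with array weights, 6 with the covariate and 0 to 29 with 1 rat left out. With 1 rat left out, the highest count was in each case without control 2. When any other rat was left out, 0 to 72 of all tested probes passed. The sign turned for Grm7 after quantile normalization (-0.15), with the covariate (-0.0530) and without control replicate 1 (-0.00742, with a range of -0.00742 to 0.15 as each rat was left out in turn), for Homer1 without control replicate 2 (-0.000902, with a range of -0.000902 to 0.14), and with the covariate for Grm2 (-0.0500), Homer2 (-0.15), Homer3 (-0.13) and Gna11 (-0.0216, with a range of 0.59 to 1.10 as each rat was left out). Grm3, Grm5, Grm8 and both Grm4 probes kept their sign in every alternative run. The cause of these changes was not tested.

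With the replicate number as a block, 0 of all tested probes, 0 member probes and 0 pathway genes passed. The numbers carry no stated pairing, and deviations of same-numbered rats correlated at 0.095, 0.12, -0.087 and 0.31, with 1 of 8 arrays nearest to its own number. The member probes lay well above background on all 8 arrays, while 22036 of the 23678 tested probes did. Pathway genes Adcy1 and Agap2 did on 1 of 4 control arrays, and on 3 and 4 of the 4 stressed arrays. They passed the filter through the stressed rats, where they were higher (1.25 and 0.91). Their differences are thus less well measured and in part selected, and both count among the 28 of 46 genes above 0.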
